A study of Mus musculus with 4 samples.

Results

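The proteasome is the protease that degrades most ubiquitin-tagged protein in the cell. Its 20S core is a barrel of stacked rings, with outer rings of alpha subunits that gate the entrance and inner rings of beta subunits that carry the catalytic sites. The 19S regulator caps the barrel, where its ATPases unfold the substrate and its non-ATPase subunits bind ubiquitin and remove it. In leukocytes, and in other cells exposed to interferon-gamma, the catalytic subunits *Psmb5*, *Psmb6* and *Psmb7* can be replaced by the immune subunits *Psmb8*, *Psmb9* and *Psmb10*, which alters the peptides made for presentation on MHC class I. In skeletal muscle the proteasome carries much of the protein breakdown of atrophy, which glucocorticoids promote.

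Proteasome genes were taken as every gene name made of Psma, Psmb, Psmc or Psmd and a number, a rule that used no measured value. It selected 39 of the 22252 gene names. They comprised 14 subunits of the constitutive 20S core, 3 immune subunits, 17 subunits of the 19S regulator, 3 chaperones of 19S assembly that carry Psmd names, and 2 tissue-restricted core subunits. The latter were *Psma8*, the alpha subunit of the testis, and *Psmb11*, the catalytic subunit of the thymic cortex. A total of 38 of the 39 had counts above 0 in all 4 libraries, as did 14206 gene names in the whole table.

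RNA-seq was performed on gastrocnemius muscle of 7-week-old male mice to ask how obesity and muscle glucocorticoid receptor (GR) shape the muscle transcriptome. All mice were C57BL/6J and carried *Nr3c1*, the gene encoding GR, with both alleles floxed (GRf/f). GRf/f mice had no Cre, whereas GRmKO mice carried *Acta1*-Cre, which acts in myofibers and leaves the receptor in the other cells of the muscle. Lean mice were wild type for *Lep*, the gene encoding leptin, and ob/ob mice were homozygous for its ob mutation. Each of the 4 groups, lean GRf/f, lean GRmKO, ob/ob GRf/f and ob/ob GRmKO, was 1 library from the pooled RNA of 3 mice, so that the spread between mice is unknown. Levels are in CPM, a gene's counts divided by the total of its library and put on a common scale, with 95% counting intervals in brackets that cover counting error only.

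The libraries held between 19897754 and 20959781 expected counts, and 3 counts corresponded to between 0.143 and 0.151 CPM. The 10 muscle fibre markers, among them *Acta1* and *Ckm*, together reached between 111536 and 130726 CPM. *Nr3c1* stood at 125 CPM in lean GRf/f, 67.0 in lean GRmKO, 102 in ob/ob GRf/f and 39.1 in ob/ob GRmKO muscle, lower in GRmKO muscle on both backgrounds. These counts cover the whole gene and not the floxed exon alone.

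Promoter stretches of 4 catalytic subunits are shown, since the 2 classes of catalytic gene differed most in the comparisons that follow. *Psmb5*, which carries the chymotrypsin-like site, and *Psmb6*, which carries the caspase-like site, each hold the core of the antioxidant response element, TGACNNNGC, which is read by the transcription factors Nfe2l1 and Nfe2l2 with small Maf proteins. *Psmb8*, the immune counterpart of *Psmb5*, holds a match to the interferon-gamma activated site, TTCNNNGAA, and *Psmb9*, the counterpart of *Psmb6*, holds a CCAAT box on the opposite strand. The stretches are from RefSeq on GRCm38.p6, run 5′ to 3′ on the strand of the gene, and have the match in capitals. They are chr14:54618023-54618245 (minus strand), chr11:70525107-70525356 (plus strand), chr17:34198088-34198116 (plus strand) and chr17:34187331-34187359 (minus strand). In *Psmb8* and *Psmb9*, the window before the start lies in exons of other annotated transcripts, and only 29 bases are shown.
Psmb5: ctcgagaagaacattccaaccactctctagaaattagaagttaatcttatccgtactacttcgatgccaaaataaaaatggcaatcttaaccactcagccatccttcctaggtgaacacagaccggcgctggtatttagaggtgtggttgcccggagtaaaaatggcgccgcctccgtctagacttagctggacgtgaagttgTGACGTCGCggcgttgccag
Psmb6: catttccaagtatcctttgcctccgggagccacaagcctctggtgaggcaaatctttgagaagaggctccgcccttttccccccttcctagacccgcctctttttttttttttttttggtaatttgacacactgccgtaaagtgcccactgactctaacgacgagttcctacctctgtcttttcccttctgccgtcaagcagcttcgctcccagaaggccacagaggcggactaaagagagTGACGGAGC
Psmb8: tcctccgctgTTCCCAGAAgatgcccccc
Psmb9: ctgcaccgcgcgcagccgctgATTGGaaa

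The matches began 47 bases before the RefSeq start in *Psmb5*, 9 in *Psmb6*, 97 in *Psmb8* and 8 in *Psmb9*. TGACNNNGC was found on either strand in the 250 bases before the start in 5 of 34 windows of 32 proteasome genes (14.7%; *Psmb5*, *Psmb6*, *Psmc6*, *Psmd9* and *Psmd12*) and in 10.2% of all 32851 windows. CCAAT was found in 13 of 34 (38.2%) against 33.8%. TTCNNNGAA was found in 1 of 34 (2.94%, *Psmb8*) against 7.02%, and the interferon-stimulated response element in 3 of 34 (8.82%; *Psmb3*, *Psmd4* and *Psmd9*) against 2.98%. The 4 motifs were searched on both strands and separately, so that matches may overlap. The immune subunit genes stood close to genes of antigen presentation. On chromosome 17, the starts of *Psmb9* and *Tap1*, a subunit of the peptide transporter, lay 225 bases apart on opposite strands, and *Psmb8* and *Tap2* lay on the other side of *Tap1*. *Psmb10* lay apart from them, at chr8:105935735-105938444.

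With obesity, proteasome transcripts took a slightly smaller share of the counts, and the size of the difference varied by role. The 39 genes together took 3441 CPM (3416 to 3466) in lean GRf/f, 3518 (3492 to 3544) in lean GRmKO, 3077 (3053 to 3101) in ob/ob GRf/f and 3254 (3230 to 3279) in ob/ob GRmKO muscle. Of 38 genes, 30 had a lower level with obesity in GRf/f mice and 30 in GRmKO mice, with 27 lower in both. On the log2 scale the median change was -0.18 in GRf/f and -0.22 in GRmKO mice, but the median of all 14206 genes was also lower, at -0.11 and -0.21. Relative to the median gene, 21 of 38 were below it in GRf/f and 19 of 38 in GRmKO mice. A change of at least 1.5-fold, among genes that reached 50 counts on 1 side of the comparison, was seen by 3 of 37 proteasome genes, all lower, in each genotype, where 12.2% of all genes so tested were as much lower in GRf/f and 20.7% in GRmKO mice. The 3 were *Psmb8*, *Psmb9* and *Psmb10* in both genotypes. No proteasome gene was higher by 1.5-fold, against 5.35% and 5.07% of all genes.

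**Figure D1:**
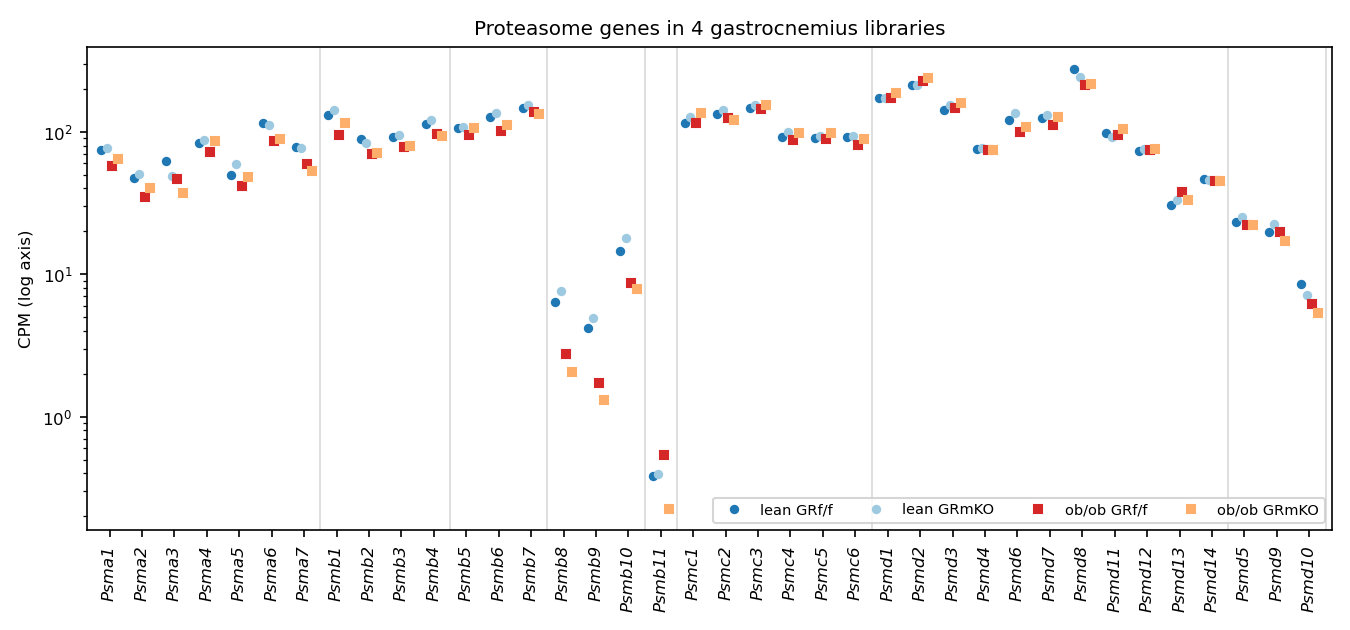
CPM on a log axis of the 38 proteasome genes above 0 in all libraries, 1 point per library (circles lean, squares ob/ob), with vertical lines between role groups. Psmb8, Psmb9 and Psmb10 are lower in both ob/ob than in both lean libraries, whereas the Psmc genes lie between 80.9 and 155 CPM in all 4 libraries; levels are not per length and compare libraries, not genes.

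The 3 immune subunits were each lower by at least 1.5-fold in ob/ob muscle in both genotypes. Of all genes tested, 12.2% were as much lower in GRf/f and 20.7% in GRmKO mice. This direction was kept under each of the 5 other scalings tried. *Psmb8* stood at 6.42 CPM (5.41 to 7.59) in lean GRf/f, 7.66 (6.52 to 8.95) in lean GRmKO, 2.76 (2.14 to 3.58) in ob/ob GRf/f and 2.07 (1.52 to 2.76) in ob/ob GRmKO muscle. Its level in ob/ob muscle was 2.33-fold lower in GRf/f mice, a log2 change of -1.22 (-1.68 to -0.76), and 3.71-fold lower in GRmKO mice, a log2 change of -1.89 (-2.42 to -1.40). *Psmb9* stood at 4.17, 4.94, 1.72 and 1.32 CPM in the same order, from 86.5 counts in lean GRf/f to 27.6 in ob/ob GRmKO muscle. It was 2.43-fold lower in GRf/f (-1.28, -1.89 to -0.71) and 3.75-fold lower in GRmKO mice (-1.91, -2.54 to -1.26). *Psmb10*, the immune counterpart of the trypsin-like subunit *Psmb7*, stood at 14.6, 18.0, 8.69 and 7.93 CPM. It was 1.68-fold lower in GRf/f (-0.75, -1.02 to -0.48) and 2.27-fold lower in GRmKO mice (-1.18, -1.46 to -0.91). Without strand-specific counting, reads of *Psmb9* and of *Tap1*, whose annotated exons overlap on opposite strands, cannot be told apart where they overlap, and whether strand was used is not given in the sources used here.

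The constitutive catalytic subunits differed far less. *Psmb5* stood at 106 CPM in lean GRf/f, 108 in lean GRmKO, 95.2 in ob/ob GRf/f and 106 in ob/ob GRmKO muscle. Its log2 change with obesity was -0.15 (-0.24 to -0.06) in GRf/f and -0.03 (-0.11 to 0.06) in GRmKO mice. *Psmb6* stood at 127, 136, 101 and 112 CPM, with changes of -0.32 (-0.41 to -0.24) and -0.28 (-0.36 to -0.20). *Psmb7* stood at 147, 155, 138 and 134 CPM, with changes of -0.09 (-0.16 to -0.02) and -0.20 (-0.28 to -0.13). Each was highest in lean GRmKO muscle by CPM, and all 3 together changed by -0.18 in either genotype.

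Because each immune subunit can take the place of 1 constitutive subunit, the counts of each pair were compared within a library, which removes the scaling between libraries. The shares are of transcripts in whole muscle, and replacement within cores was not measured. *Psmb8* made up 5.73% (4.85 to 6.74) of the counts of *Psmb8* and *Psmb5* in lean GRf/f, 6.60% (5.64 to 7.66) in lean GRmKO, 2.81% (2.19 to 3.63) in ob/ob GRf/f and 1.90% (1.41 to 2.54) in ob/ob GRmKO muscle. *Psmb9* made up 3.19%, 3.51%, 1.67% and 1.16% of the counts of *Psmb9* and *Psmb6* in the same order. *Psmb10* made up 9.02%, 10.4%, 5.91% and 5.57% of the counts of *Psmb10* and *Psmb7*. In each pair both lean libraries lay above both ob/ob libraries, with counting intervals that did not overlap between lean and ob/ob muscle. How often other pairs of genes separate in this way was not computed. Division by transcript length lowered the share of *Psmb9* to between 0.69% and 2.1% and kept this order of lean above ob/ob muscle. Division by coding length raised it instead, to between 1.26% and 3.81%, with the same order.

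**Figure D2:**
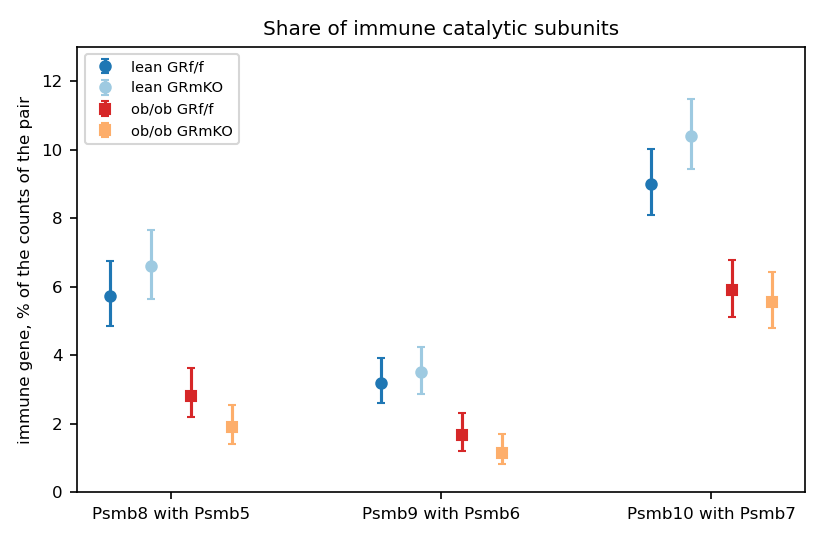
Share of the immune gene in the counts of each pair of immune and constitutive catalytic subunits, in percent, for the 4 libraries; bars give 95% Wilson intervals for counting error. The lean libraries lie above the ob/ob libraries in each pair, for example 5.73% and 6.60% against 2.81% and 1.90% for Psmb8 with Psmb5.

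Genes that work with the immune subunits were lower too, and so were leukocyte markers. Of 10 genes of antigen processing and the interferon response that passed the filter, 9 were lower in ob/ob muscle in GRf/f mice and 10 in GRmKO mice (8 and 10 below the median gene), with medians of -0.45 and -1.06 against -0.11 and -0.21 for all genes. *Tap1* stood at 8.64, 7.37, 4.72 and 2.45 CPM in lean GRf/f, lean GRmKO, ob/ob GRf/f and ob/ob GRmKO muscle, and *B2m*, the light chain of MHC class I, at 249, 249, 146 and 105 CPM. The MHC class I heavy chain genes *H2-K1* and *H2-D1* both changed by -0.88 in GRf/f, and by -1.35 and -1.42 in GRmKO mice. The exception was *Irf9*, a subunit of the interferon-activated factor ISGF3, at 3.09, 6.77, 7.50 and 3.16 CPM, higher with obesity in GRf/f mice. *Nlrc5*, the activator of MHC class I transcription, did not exceed 25.1 counts in any library. It was listed at 0 in lean GRmKO muscle, and at 1.21, 1.13 and 0.60 CPM in lean GRf/f, ob/ob GRf/f and ob/ob GRmKO muscle.

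The 11 leukocyte markers together took 697 CPM in lean GRf/f, 936 in lean GRmKO, 306 in ob/ob GRf/f and 256 in ob/ob GRmKO muscle, the same order over the libraries as the sum of the 3 immune subunits (25.2, 30.6, 13.2 and 11.3 CPM). The 10 that passed the filter were each lower with obesity in both genotypes, and all 10 were below the median gene in both. Their medians were -0.80 in GRf/f and -1.51 in GRmKO mice, against -0.11 and -0.21 for all genes. *Ptprc*, which encodes the pan-leukocyte protein CD45, stood at 7.68, 9.70, 4.37 and 3.52 CPM, whereas the MHC class II chain *H2-Aa* stood at 85.0, 123, 19.2 and 20.1 CPM. *Cd3e*, which defines T cells, did not exceed 3 counts in any library. Fewer leukocytes and less of these transcripts per cell cannot be told apart in whole muscle, and the part of leukocytes in the values of the immune subunits was not tested. Endothelial markers, at 419, 497, 330 and 298 CPM, followed the same order of libraries, and their part was not tested either.

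**Figure D3:**
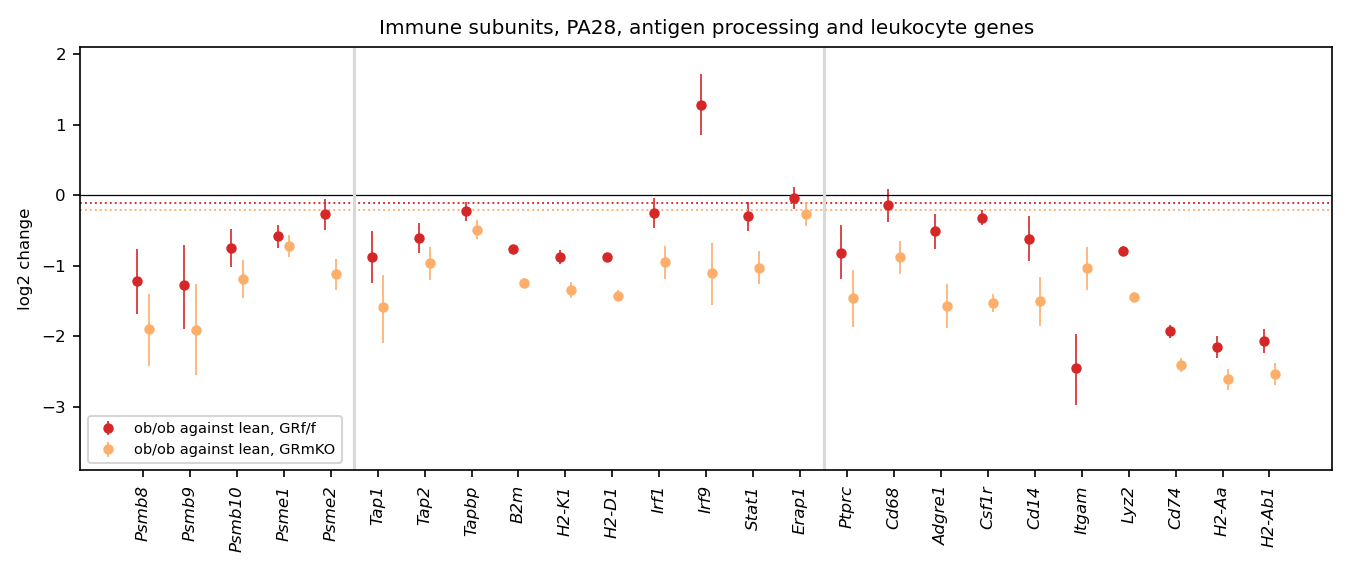
Log2 change in ob/ob against lean muscle in GRf/f (red) and GRmKO (orange) mice, with 95% counting intervals, for the immune subunits and PA28 (left), antigen processing and interferon genes (middle) and leukocyte markers (right); dotted lines mark the median of all genes (-0.11 and -0.21). Psmb8 and Psmb9 lie at -1.22 and -1.28 in GRf/f and at -1.89 and -1.91 in GRmKO mice, within the range of the leukocyte markers, and Irf9 alone of the genes drawn lies clearly above 0, in GRf/f mice.

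All 14 subunits of the constitutive 20S core had a lower share of the counts with obesity in both genotypes, by CPM. The median of all genes was also lower, at -0.11 in GRf/f and -0.21 in GRmKO mice. Together they took 1315 CPM (1300 to 1331) in lean GRf/f, 1350 (1334 to 1367) in lean GRmKO, 1073 (1059 to 1087) in ob/ob GRf/f and 1129 (1115 to 1144) in ob/ob GRmKO muscle, so that both ob/ob libraries lay below both lean ones. The sum was 18.4% lower in GRf/f (log2 change -0.29, -0.32 to -0.27) and 16.4% lower in GRmKO mice (-0.26, -0.28 to -0.23). Against the median gene the margin was smaller, with 13 of 14 below it in GRf/f and 11 of 14 in GRmKO mice. These were also the numbers that remained lower under TMM or DESeq2 scaling, with 11 of 14 lower in both genotypes. By at least 20%, 8 of 14 were lower in GRf/f mice, beside 28.1% of all genes, and 4 of 14 in GRmKO mice, beside 39%.

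Among the 7 subunits of the alpha ring the log2 changes ran from -0.46 to -0.22 in GRf/f and from -0.53 to -0.02 in GRmKO mice. *Psma2* changed most in GRf/f mice, with 47.8 CPM in lean GRf/f, 50.9 in lean GRmKO, 34.8 in ob/ob GRf/f and 40.1 in ob/ob GRmKO muscle. *Psma7* changed most in GRmKO mice, with 78.2, 76.4, 59.1 and 52.9 CPM. *Psma4* changed least in both, with 83.5, 87.3, 71.7 and 86.1 CPM, and in GRmKO mice its ob/ob and lean levels lay within each other's counting interval (-0.02, -0.12 to 0.08). The 4 structural subunits of the beta ring ran from -0.46 to -0.23 in GRf/f and from -0.37 to -0.23 in GRmKO mice. *Psmb1* changed most of them in GRf/f mice, with 131, 142, 95.4 and 115 CPM, and *Psmb4* in GRmKO mice, with 114, 121, 96.6 and 93.3 CPM. *Psmb3* (92.1, 95.3, 78.7 and 78.9 CPM) and *Psmb2* (88.6, 83.1, 70.1 and 70.8 CPM) changed least, in GRf/f and GRmKO mice respectively.

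Relative to the core, the 19S regulator took more counts with obesity in both genotypes. Its 17 subunits together took 2048 CPM (2028 to 2067) in lean GRf/f, 2082 (2062 to 2102) in lean GRmKO, 1942 (1924 to 1961) in ob/ob GRf/f and 2069 (2049 to 2088) in ob/ob GRmKO muscle. The log2 change of the sum was -0.08 (-0.10 to -0.06) in GRf/f and -0.01 (-0.03 to 0.01) in GRmKO mice, and its sign depended on the scaling, since TMM factors gave 0.03 and 0.20. The core stood at -0.19 and -0.053 with the same factors, so that by CPM the regulator and by TMM the core lay closer to its lean level in GRmKO mice. Relative to the median gene, 13 of 17 were above it in GRf/f and 15 of 17 in GRmKO mice. The ratio of 20S to 19S counts, which no scaling alters, was 0.642 (0.633 to 0.652) in lean GRf/f and 0.649 (0.639 to 0.659) in lean GRmKO muscle. It was 0.552 (0.543 to 0.561) in ob/ob GRf/f and 0.546 (0.537 to 0.555) in ob/ob GRmKO muscle, a log2 change with obesity of -0.22 and -0.25.

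The 6 ATPases, which form the ring that unfolds the substrate, changed by between -0.18 and 0.00 in GRf/f and between -0.24 and 0.10 in GRmKO mice. *Psmc1* was highest in this order, with 116 CPM in lean GRf/f, 126 in lean GRmKO, 116 in ob/ob GRf/f and 135 in ob/ob GRmKO muscle. *Psmc6* was lowest in GRf/f mice (91.6, 93.8, 80.9 and 89.3 CPM) and *Psmc2* in GRmKO mice (133, 143, 124 and 121 CPM). The 11 non-ATPase subunits spread more widely, from -0.36 to 0.30 in GRf/f and from -0.32 to 0.17 in GRmKO mice. *Psmd8*, a lid subunit, stood at 276, 241, 215 and 218 CPM and was the 1 subunit of 17 that was lower by at least 20% in GRf/f mice, where 28.1% of all genes were, and none of 17 was in GRmKO mice, where 39% were. *Psmd6*, also of the lid, was lowest in GRmKO mice, with 121, 135, 99.9 and 108 CPM. *Psmd13* had the highest change in GRf/f mice (0.30, 0.15 to 0.46), with 30.6, 33.2, 37.7 and 33.0 CPM, and its change in GRmKO mice was -0.01 (-0.16 to 0.15). Its annotated exons overlap those of *Sirt3* on the opposite strand. Exons of *Psma4*, *Psmb7*, *Psmc3* and *Psmd1* also overlap those of another gene on the opposite strand, and those of *Psmd1* overlap *Gm21972* on the same strand. *Psmd11* was highest in GRmKO mice, with 98.7, 92.6, 94.4 and 104 CPM. The deubiquitinase *Psmd14*, which cuts ubiquitin from the substrate, stood between 44.9 and 46.5 CPM and the ubiquitin receptor *Psmd4* between 74.1 and 77.0 CPM in the 4 libraries, with counting intervals that overlapped throughout.

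**Figure D4:**
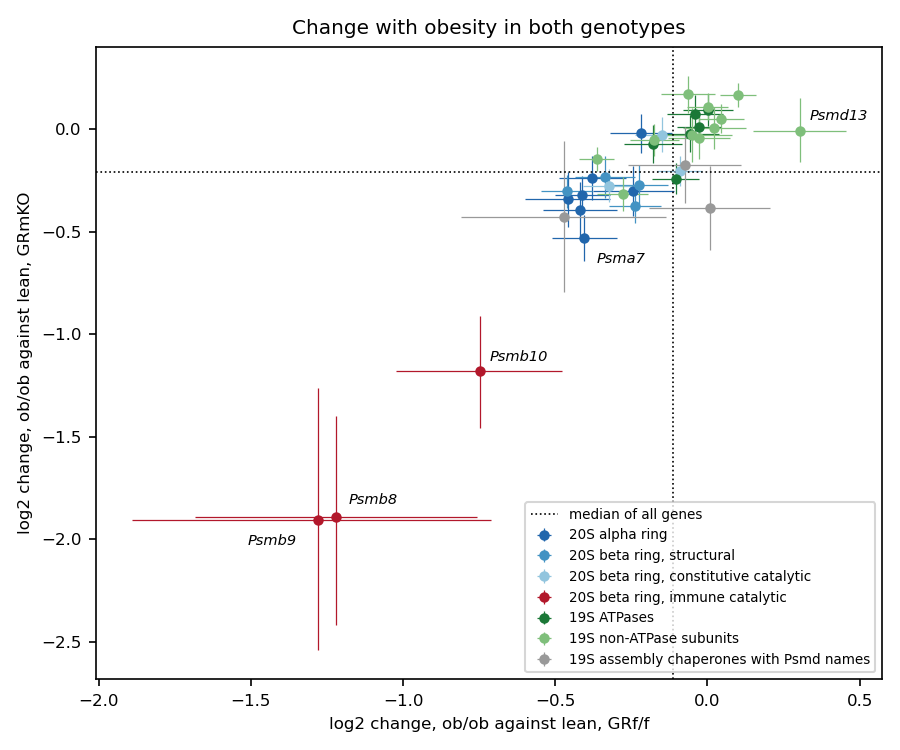
Log2 change in ob/ob against lean muscle in GRf/f mice (x axis) and GRmKO mice (y axis) for 37 proteasome genes coloured by role, with 95% counting intervals. Dotted lines mark the median of all genes, and Psmb11, whose counts are near 0, is not drawn. The immune subunits lie far to the lower left, the 20S subunits mostly below and left of the median gene, and the 19S subunits mostly above and right of it, though on the scale of CPM their summed change is near 0 and turns positive with TMM scaling.

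Core and regulator genes also differ in transcript length, and change with obesity varied with length over the 11141 genes with at least 50 counts on average. The median of these genes was -0.47 in GRf/f and -0.52 in GRmKO mice for those shorter than 1000 bp. It was -0.17 and -0.25 for those from 1500 to 2000 bp, and 0.01 and -0.07 for those of 4000 bp or more. The 20S subunits had a median length of 1101 bp and the 19S subunits of 1636 bp. The subunits were set against those of these genes in the same class of transcript length. Of the core subunits, 5 of 14 were below the class median in GRf/f and 4 of 14 in GRmKO mice, with a median difference of 0.04 and 0.11. Of the 17 regulator subunits, 4 were below it in GRf/f and 0 in GRmKO mice, with a median difference of 0.14 and 0.24. The 3 immune subunits, with a median length of 1311 bp, were below it in both genotypes, with a median difference of -0.75 and -1.37. By classes of coding length the place of the core turned in GRf/f mice, where 12 of 14 were below the class median, and 7 of 14 were in GRmKO mice, with a median difference of -0.12 and 0.01. By coding length 6 and 2 of 17 regulator subunits were below it (0.04 and 0.19), and all 3 immune subunits were below it in both genotypes (-1.07 and -1.61). Length therefore moved with the difference between core and regulator, and its part was not tested.

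**Figure D5:**
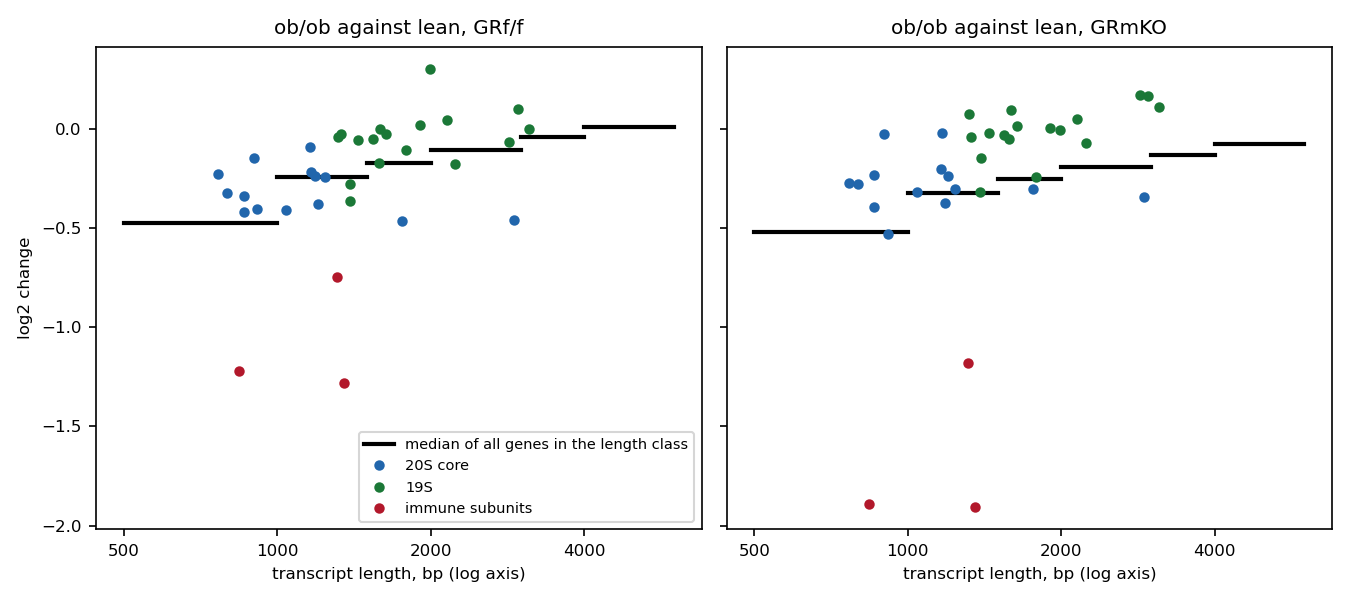
Log2 change in ob/ob against lean muscle against the length of the listed transcript (log axis) for 20S, 19S and immune subunits, in GRf/f (left) and GRmKO mice (right). Black bars give the median of all genes with at least 50 counts on average in each of 6 length classes. They run from -0.47 to 0.01 on the left and from -0.52 to -0.07 on the right. Core subunits scatter about the bars, most regulator subunits lie above them and the 3 immune subunits lie below them.

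Levels of different subunits were compared per kilobase of the listed transcript. In lean GRf/f muscle the 20S subunits ran from 16.4 CPM per kb for *Psma2* to 159 for *Psmb6*, with a median of 90.9, a span of 9.67-fold, which came to 2.68-fold by coding length. *Psma2* carries a transcript of 2911 bp for a coding sequence of 702 bp. The 19S subunits ran from 15.4 CPM per kb for *Psmd13* to 199 for *Psmd8*, with a median of 66.4, a span of 12.9-fold, or 9.62-fold by coding length. *Psmd13* was the lowest, *Psmd14* the second lowest and *Psmd8* the highest of the 19S subunits in all 4 libraries on this scale.

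The 3 chaperones of 19S assembly were lower with obesity in GRmKO mice, and 2 of them in GRf/f mice, by CPM (2 and 1 below the median gene). *Psmd10*, which binds the ATPase *Psmc4*, stood at 8.52 CPM in lean GRf/f, 7.17 in lean GRmKO, 6.14 in ob/ob GRf/f and 5.34 in ob/ob GRmKO muscle. Its change with obesity was -0.47 (-0.81 to -0.13) in GRf/f and -0.43 (-0.80 to -0.06) in GRmKO mice. *Psmd9* stood at 19.8, 22.4, 19.9 and 17.1 CPM, a change of 0.01 (-0.19 to 0.21) and of -0.39 (-0.59 to -0.18). *Psmd5* stood at 23.4, 25.1, 22.3 and 22.3 CPM, a change of -0.07 and -0.18 whose intervals include 0. The tissue-restricted subunits were near the limit of detection. *Psma8* stood at 0.484 CPM (0.262 to 0.887) in lean GRf/f muscle and had 0 counts in each of the other 3 libraries, which allows up to 0.143 to 0.151 CPM by the limit of 3 counts and up to 0.183 to 0.193 CPM by the Wilson interval. *Psmb11* had 7.98, 7.86, 11.3 and 4.75 counts, and its changes could not be told from 0 at this depth.

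With loss of muscle GR, no proteasome gene changed by 1.5-fold. In GRmKO against GRf/f mice, the median change of the 38 genes was 0.06 on the lean and 0.04 on the ob/ob background, against 0.05 and -0.04 for all genes, by CPM. On the ob/ob background it was 0.077 with TMM scaling, larger in size than the median change with obesity on that scale (-0.071 in GRf/f and -0.012 in GRmKO mice). The genes tested for a change of 1.5-fold were 37 on the lean and 36 on the ob/ob background, and 3.93% and 8.42% of all genes were lower and 5.59% and 4.91% higher by as much. By at least 20%, *Psma3*, an alpha subunit, was lower on the lean background, where 9.48% of all genes were, and *Psma3* and *Psmb8* on the ob/ob background, where 20% were. *Psma3* stood at 62.0 CPM (58.7 to 65.5) in lean GRf/f, 48.8 (45.8 to 52.0) in lean GRmKO, 46.4 (43.6 to 49.4) in ob/ob GRf/f and 37.1 (34.6 to 39.8) in ob/ob GRmKO muscle. Its log2 change with GRmKO was -0.35 (-0.47 to -0.22) on the lean and -0.32 (-0.46 to -0.19) on the ob/ob background, the lowest of the 14 core subunits on both.

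Most of the other core subunits did not share this direction by CPM. With *Psma3* among them, 4 of 14 were lower and 10 higher in GRmKO mice on the lean background (7 and 7 with TMM scaling), and 4 and 10 on the ob/ob background (3 and 11). *Psma7* was lower on both by CPM, with a log2 change of -0.03 (-0.14 to 0.07) on the lean and -0.16 (-0.28 to -0.04) on the ob/ob background. The others lower were *Psma6* and *Psmb2* on the lean and *Psmb4* and *Psmb7* on the ob/ob background, with intervals that include 0. Of the 19S subunits, 14 of 17 were higher on the lean background by CPM but 7 of 17 with TMM scaling, and 15 of 17 on the ob/ob background by CPM and 16 with TMM scaling, with CPM changes from -0.20 to 0.15 and from -0.19 to 0.22. The immune subunits were each higher in GRmKO mice on the lean background, by 0.26 for *Psmb8*, 0.24 for *Psmb9* and 0.30 for *Psmb10*, and each lower on the ob/ob background, by log2 changes of -0.42, -0.38 and -0.13. Of these 6 intervals, that of *Psmb10* on the lean background (0.08 to 0.53) left out 0. Summed leukocyte markers went the same ways, by 0.43 and -0.26. Of the 10 that passed the filter, all were higher on the lean background, but 7 were lower and 3 higher on the ob/ob background. The same numbers held relative to the median gene.

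Factors that work with the proteasome were examined from lists of related genes. Among activators, *Psme1* and *Psme2*, which form the interferon-inducible cap PA28, were lower with obesity. *Psme1* stood at 37.5 CPM in lean GRf/f, 43.6 in lean GRmKO, 25.1 in ob/ob GRf/f and 26.5 in ob/ob GRmKO muscle, a change of -0.58 and -0.72. *Psme2* stood at 18.3, 25.4, 15.2 and 11.7 CPM, a change of -0.27 and -1.12. The activator *Psme4*, which encodes PA200, went the other way, with 247, 208, 289 and 281 CPM and changes of 0.23 and 0.44. The small 19S subunit *Sem1*, whose name falls outside the rule, stood at 73.1, 82.0, 45.1 and 53.3 CPM, a change of -0.70 and -0.62, and the ubiquitin receptor *Adrm1* at 116, 115, 105 and 108 CPM.

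The 5 assembly factors of the core were lower in GRf/f mice and 4 of 5 in GRmKO mice by CPM (5 and 3 below the median gene), with medians of -0.44 and -0.33. *Psmg4* had the lowest change in both, with 4.60, 4.81, 1.85 and 2.95 CPM, and *Psmg3* stood at 6.91, 4.56, 4.49 and 4.70 CPM. *Pomp*, which is degraded as the core matures, stood at 45.9, 50.4, 39.4 and 46.6 CPM. Of the deubiquitinases that bind the regulator, *Usp14* changed by -0.06 and 0.07 and *Uchl5* by 0.25 and 0.17. *Paaf1* was not listed under this name.

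*Nfe2l1*, which encodes the factor that raises proteasome gene transcription when proteasome activity is short, was higher with obesity. It stood at 232 CPM (226 to 239) in lean GRf/f, 234 (228 to 241) in lean GRmKO, 362 (354 to 370) in ob/ob GRf/f and 446 (437 to 455) in ob/ob GRmKO muscle, a change of 0.64 and 0.93. It was 1.56-fold higher in GRf/f and 1.90-fold higher in GRmKO mice, where 5.35% and 5.07% of all genes tested were higher by at least 1.5-fold. Both ob/ob libraries lay above both lean ones, and how often other genes separate in this way was not computed. The 14 core subunits together were lower in both ob/ob libraries by CPM, with log2 changes of -0.19 and -0.053 under TMM scaling. *Nfe2l2* went the other way, with 102, 78.7, 69.6 and 60.6 CPM. *Ddi2*, which cleaves the Nfe2l1 protein, changed by -0.05 and 0.05, and *Ngly1*, which removes its glycans, by -0.38 and -0.13. *Maff* stood at 7.10, 4.37, 4.33 and 6.20 CPM.

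The 10 genes of ubiquitin activation and substrate delivery, among them *Uba1* and *Vcp*, had medians of 0.07 and 0.13, ranging from -0.26 for *Uba6* to 0.24 for *Ubqln4* in GRf/f and from -0.28 for *Ubqln2* to 0.47 for *Ubqln4* and *Nploc4* in GRmKO mice.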

How the data were processed

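The authors quantified 100-bp paired-end reads of pooled RNA with Salmon (v1.2.1) on the protein-coding transcripts of GENCODE, followed by tximport (lengthScaledTPM) in R v3.5.0, retaining the entry with the most counts for a duplicated name. The deposited values are expected counts, not normalized between libraries, and 1 library represents each group. Counts were scaled to CPM over all gene names, and the 14206 genes above 0 in all 4 libraries were compared in 4 contrasts (ob/ob against lean within genotype, GRmKO against GRf/f within background). The NOISeq calls of the study rest on simulated technical replicates and were not used, so no p-value is given. A change was counted at 1.5-fold with at least 50 counts in 1 library. Level and share intervals are Wilson and change intervals exact conditional (Clopper-Pearson) at 95%, from rounded counts (Python 3.11.15, scipy 1.17.1). They cover counting error only, and the calculation was tested on simulated data. Alternatives were TMM (edgeR 4.0.16) and DESeq2 (1.42.0) factors from rounded counts, upper quartile, a total without the 50 most abundant genes, no scaling, 2 stricter filters, a decrease of at least 20% or a fold of 2, and other lengths. Comparison by length class and 2 interferon motifs were added after seeing the data. Genes named were the catalytic and immune subunits, the highest and lowest change of each other role, members past 1.5-fold or near 0, and likewise for related lists, with marker lists summarized. Members and lists were chosen with earlier results of these data known. Gene models are GENCODE on GRCm38, where all 39 names were found. RefSeq promoter windows were found for 32. Proteins were not analysed here, and 1 list of related genes and 1 marker gene are not reported here.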

Additional observations from a re-analysis of the deposited data

Results flagged for a closer look

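Changes with opposite signs in the 2 backgrounds, with counting intervals that left out 0 in both and a log2 difference of at least that of 1.5-fold, were looked for in 182 comparisons over 91 genes and sums of the proteasome and related lists. None was a proteasome gene of the rule or a sum of its roles. In each case below the difference itself was not tested, since each group is 1 library. *Psme2*, a subunit of PA28, was higher in GRmKO than in GRf/f mice on the lean background (0.47) and lower on the ob/ob background (-0.38), a difference of 0.857. The interferon-response factor *Irf1* went the same ways (0.22 and -0.48), a difference of 0.698, as did *Irf9* (1.13 and -1.25), a difference of 2.38. *Irf9* was also higher with obesity in GRf/f mice (1.28) and lower in GRmKO mice (-1.10), again 2.38 apart, since the same 4 libraries give both. *Maff*, a small Maf partner of Nfe2l1, was lower with obesity in GRf/f mice (-0.71) and higher in GRmKO mice (0.51), a difference of -1.22, and lower in GRmKO mice on the lean (-0.70) but higher on the ob/ob background (0.52), also -1.22. *Maff* and *Irf9* did not exceed 7.10 and 7.50 CPM.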

How the results depend on the processing

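With 1 library per group no replicate could be left out, and no paired analysis was possible because each group has 1 library. The counts of proteasome genes past 1.5-fold were 3, 3, 0 and 0 under every scaling and filter tried, and by at least 20%, 13 and 9 were lower with obesity in GRf/f and GRmKO mice, beside 28.1% and 39% of all genes, and 1 and 2 with GRmKO in lean and ob/ob mice, beside 9.48% and 20%. The median change with obesity in GRf/f mice was -0.071 with TMM and -0.06 with DESeq2 factors, and in GRmKO mice -0.012 and -0.0028. The summed change of the 20S core in GRf/f mice was -0.19 with TMM, -0.18 with DESeq2, -0.21 with upper quartile scaling and -0.26 without the 50 most abundant genes, and in GRmKO mice -0.053, -0.044, -0.12 and -0.18, and -0.18 unscaled. That of the 19S regulator was 0.03, 0.041, 0.0032 and -0.041 in GRf/f mice, and 0.20, 0.21, 0.13, 0.072 and 0.065 in GRmKO mice, so its sign turned with the scaling. These scalings shift all genes of a comparison alike, and 16 of 38 genes remained lower in both genotypes with TMM or DESeq2, against 27 by CPM. Division by transcript length gave shares of *Psmb9* with *Psmb6* of 1.91%, 2.1%, 0.99% and 0.69%, and of *Psmb10* with *Psmb7* of 8.06% and 9.33% in the lean libraries. By coding length the shares of *Psmb9* with *Psmb6* were 3.45%, 3.81%, 1.81% and 1.26%. The span of levels per length was 2.68-fold for the core by coding length, and 9.06-fold by the longest transcript and 9.62-fold by coding length for the regulator. Of 760 values of single genes under other scalings, 171 left their counting interval and none past 1.5-fold changed sign. Depth limited *Psmb8*, *Psmb9*, *Psmb11* and *Psma8* most.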

Other observations

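Other cell type markers also differed between the libraries, and their part in the proteasome values was not tested. In lean GRf/f, lean GRmKO, ob/ob GRf/f and ob/ob GRmKO muscle, 9 slow fibre genes summed to 519, 692, 1152 and 1646 CPM, 6 erythroid genes to 2229, 2127, 970 and 872 CPM, 5 adipocyte genes to 904, 604, 513 and 330 CPM, and 6 fibroblast genes to 5258, 5678, 10397 and 5615 CPM. The 4 nerve and Schwann cell genes summed to 346, 430, 493 and 430 CPM, and the 3 satellite cell genes to 10.9, 14.96, 21.2 and 17.2 CPM. These sums can hide genes that went opposite ways. With obesity, 4 adipocyte genes were lower and 1 higher in each genotype. Their log2 changes ran from -4.21 to 2.30 in GRf/f and from -4.02 to 2.84 in GRmKO mice. Of the fibroblast genes, 2 were lower and 4 higher in GRf/f mice, and 4 lower and 2 higher in GRmKO mice.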
